A study of Chlorocebus sabaeus with 6 samples.

Results

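The genes described here are YAP1 and 4 of its commonly used transcriptional targets: CCN2 (also called CTGF), CCN1 (also called CYR61), AXL and ANKRD1. The members were taken from the deposited expression table by 5 human Ensembl protein identifiers, and all 5 were found, among 51520 features in all. The table itself pairs no identifier with a gene symbol. The names therefore rest on the list of identifiers, and for all 5 the chromosome in the table was the one on which the RefSeq gene table of Chlorocebus sabaeus places the gene of that name. None of the 5 overlapped another feature in position, so no other feature of the table shared their stretch of the genome.

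Poly-A RNA came from 6 libraries of COS-1, a single line of African green monkey kidney cells transformed with simian virus 40 sequences. The control group comprised 3 libraries of cells that received no treatment, and the other group comprised 3 libraries of cells treated with lentivirus. Every culture of both groups went without serum for 14 h before epidermal growth factor (EGF, 2 ng/ml) was added for 90 min, and no library shows the unstimulated state. The series title names SHOC2, a scaffold of RAS to ERK1/2 signalling; the cargo of the lentivirus is not given in the labels, and SHOC2 was not analysed here. Because the control cells received no virus, infection itself and the cargo of the virus cannot be told apart. Whether the replicates were separate cultures is not stated, so every p-value below reflects the spread among these 6 libraries alone, and that spread may be technical.

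YAP is a transcriptional coactivator and the main effector of the Hippo pathway. In the Hippo cascade the MST kinases activate the LATS kinases, and LATS phosphorylates YAP, which is then held in the cytoplasm. Unphosphorylated YAP enters the nucleus, binds TEAD transcription factors and raises the transcription of its target genes. Activity is set largely by phosphorylation and location, so the YAP1 transcript level is not a readout of it. CCN1, CCN2 and ANKRD1 are widely used as transcript readouts of YAP and TEAD activity in cultured cells. CCN1 and CCN2 also respond quickly to serum and growth factors by other routes.

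ANKRD1 rose 1.82-fold and CCN1 rose 1.32-fold in the lentivirus-treated libraries, and both passed the test. YAP1 was 1.23-fold higher by its means and lay just outside the threshold. CCN2 did not differ beyond the spread of the libraries, and AXL, the least abundant of the 5, was 1.20-fold lower by its means and was not tested. Levels are given in FPKM, a fragment count corrected for the length of the feature and the size of the library, and depth is unknown because FPKM keeps no read counts. Testing used limma on log2(FPKM + 1) over the 28434 features whose mean reached 1 FPKM, with Benjamini-Hochberg adjustment over all of them and a call at an adjusted p under 0.05.

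Among the 4 members that were tested, 2 were called, both higher, against 6.48% of all tested features called in either direction and 2.89% called higher (3.59% were called lower). Among the 9949 tested features that, like the members, overlap no other, 8.76% were called in either direction and 3.82% were called higher. The remaining member, AXL, did not enter the test because its mean over the 6 libraries, 0.934 FPKM, was under the minimum. The control and lentivirus values did not overlap in 4 of the 5 genes, 3 of them higher and 1 lower in the lentivirus group. The lower one is AXL, which was not tested, so the count among the 4 tested members is 3, all higher. Over all tested features the groups did not overlap in 31.6% (15.1% higher and 16.5% lower), and among tested features that overlap no other in 39.8%. Separation of the groups is thus by itself a common finding in this table. The median log2 change over the 5 genes was 0.30, beside -0.00097 over all tested features. These genes were chosen with earlier results of the data known, so neither the count nor the median is evidence about the list.

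**Figure D1:**
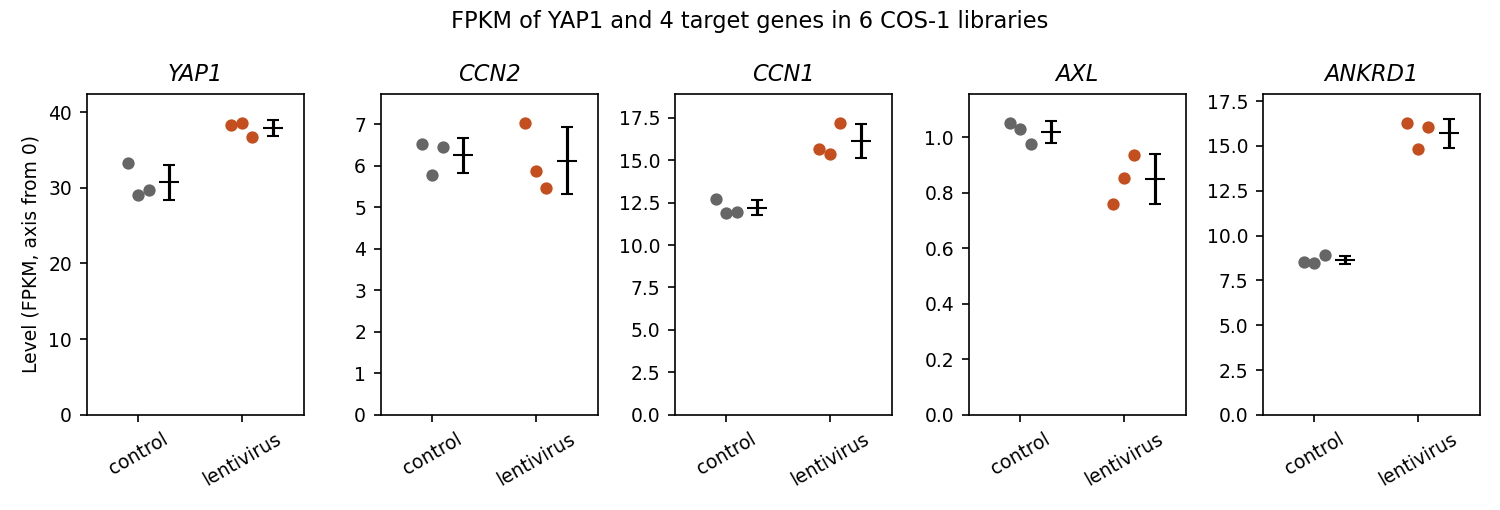
Level in FPKM of each gene in each of the 6 libraries (points), with the group mean and SD beside them (n = 3 per group; every axis starts at 0 and has its own scale). ANKRD1, CCN1 and YAP1 show 3 lentivirus values above all 3 control values, CCN2 overlaps between the groups, and AXL is lower in the lentivirus group by a narrow margin of 0.0384 FPKM.

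YAP1 (ENSP00000282441_1, chromosome 1, 93479903 to 93602540) was the most abundant of the 5 genes in every library. It stood at 33.25, 29.04 and 29.70 FPKM in control replicates 1 to 3 and at 38.33, 38.59 and 36.65 FPKM in lentivirus replicates 1 to 3. All 3 lentivirus values lay above all 3 control values, with 3.41 FPKM between the highest control and the lowest lentivirus library. The means were 30.7 ± 2.26 and 37.9 ± 1.05 FPKM (SD, n = 3). On the log2 scale YAP1 was 0.30 higher, with a 95% interval from 0.14 to 0.46 and a limma adjusted p of 0.0582. YAP1 was therefore not called, although its interval excluded 0 before adjustment. The side of the threshold depended on the setting: YAP1 was called with a minimum mean of 5 FPKM (limma adjusted p = 0.0459), with libraries scaled to a common column sum (limma adjusted p = 0.0453) and in a test over loci, in which overlapping features were summed (limma adjusted p = 0.0231). Those fits called 10.1% of features, 6.15% of features and 19.5% of loci in all. The exact permutation p of its difference was 0.10, the smallest that 3 libraries against 3 allow.

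ANKRD1 (ENSP00000360762_1, chromosome 9, 84248896 to 84257033) showed the largest change of the 5. It encodes an ankyrin repeat protein known from striated muscle, where it acts in the sarcomere and the nucleus, and is a standard YAP target in other cells. Its level was 8.523, 8.469 and 8.892 FPKM in the control libraries and 16.29, 14.80 and 16.07 FPKM in the lentivirus libraries. The control values were tight, with a coefficient of variation of 2.67%, and the lowest lentivirus library stood 1.66-fold above the highest control library. The means were 8.63 ± 0.231 and 15.7 ± 0.801 FPKM (SD, n = 3), or 0.80 higher on the log2 scale (SE 0.059, 95% interval from 0.65 to 0.94; limma adjusted p = 0.00935). Of all tested features, 2.79% had a higher change than ANKRD1, and of the tested features that overlap no other, 0.724% did. The exact permutation p was 0.10. Leaving out 1 library moved the log2 change only between 0.77 and 0.84, but the call was kept only without lentivirus replicate 2 (limma adjusted p = 0.0437). It was lost without lentivirus replicates 1 and 3 and without control replicates 1, 2 and 3, with limma adjusted p from 0.0502 to 0.0576.

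CCN1 and CCN2 encode closely related secreted proteins of the CCN family, which bind integrins and other components of the cell surface and matrix. Both genes are short, with spans of 2061 and 1902 bases in the table. Both are commonly used as transcript readouts of YAP, and of the pair only CCN1 passed the test; the difference between their changes is given further on.

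CCN1 (ENSP00000398736_1, chromosome 20, 47783937 to 47785997) stood at 12.71, 11.88 and 11.96 FPKM in the control libraries and at 15.67, 15.34 and 17.20 FPKM in the lentivirus libraries. The groups did not overlap, with a gap of 2.62 FPKM. The means were 12.2 ± 0.460 and 16.1 ± 0.996 FPKM (SD, n = 3), and the log2 change was 0.37 with SE 0.064 and a 95% interval from 0.21 to 0.53 (limma adjusted p = 0.0371, exact permutation p = 0.10). The CCN1 call was lost without any 1 of the 6 libraries, at log2 changes of 0.32 to 0.40 and limma adjusted p of 0.0892 to 0.122, and with no minimum level (limma adjusted p = 0.0554). The same 6 fits called 48 to 118 features in all, against 1842 with every library.

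CCN2 (ENSP00000356954_1, chromosome 13, 41614035 to 41615936) stood at 6.529, 5.771 and 6.456 FPKM in the control libraries and at 7.033, 5.877 and 5.464 FPKM in the lentivirus libraries. Lentivirus replicate 1 was the highest of the 6 values and lentivirus replicate 3 the lowest, so the control values lay inside the lentivirus range. The means were 6.25 ± 0.418 and 6.12 ± 0.813 FPKM (SD, n = 3), a log2 change of -0.03 (limma adjusted p = 0.898, exact permutation p = 0.90). The 95% interval, from -0.29 to 0.23, corresponds to 0.815-fold to 1.18-fold on the FPKM + 1 scale. Rises as large as the estimates for ANKRD1 (0.80), CCN1 (0.37) and YAP1 (0.30) lie outside it, while a small change either way does not. CCN2 was the most variable of the genes within the lentivirus group, with a coefficient of variation of 13.3%, against 6.69% within the control group. Without lentivirus replicate 3 its log2 change was 0.04.

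AXL (ENSP00000301178_1, chromosome 6, 35538182 to 35578283), a receptor tyrosine kinase whose ligand is GAS6, was the least abundant of the 5 genes in every library. It stood at 1.052, 1.029 and 0.9748 FPKM in the control libraries and at 0.7581, 0.8520 and 0.9364 FPKM in the lentivirus libraries. The groups did not overlap, but by only 0.0384 FPKM. The means were 1.02 ± 0.0398 and 0.849 ± 0.0892 FPKM (SD, n = 3), 1.20-fold lower in the lentivirus group. When the minimum level was dropped so that AXL could be tested, its unadjusted limma p was 0.0411 and its adjusted p was 0.304, in a fit that called 2.32% of all features. The log2 change of -0.13 depended on the pseudocount, being -0.24 with 0.1 FPKM added and -0.04 with 5 FPKM added.

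**Figure D2:**
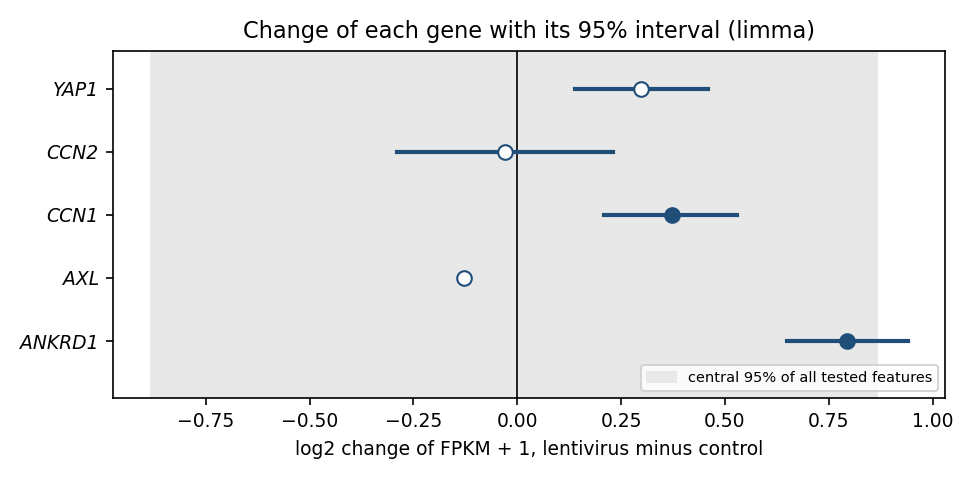
Log2 change of each gene on the log2(FPKM + 1) scale, lentivirus minus control (circles), with the limma 95% interval (bars); filled circles passed the test, and AXL, under the minimum level, has no interval. The grey band holds the central 95% of all tested features, from -0.88 to 0.87. ANKRD1 lies near its upper edge at 0.80, CCN1 and YAP1 lie at 0.37 and 0.30, and the CCN2 interval spans 0.

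Whether the genes differed from each other in their change was tested on the difference between their log2(FPKM + 1) values in each library, for all 10 pairs. The pairs share genes, most of which separated the groups on their own, so the pairs are not independent results. How often pairs of other features separate the groups was not tested, so the count of pairs has no background. In 8 of the 10 pairs the 3 control and 3 lentivirus differences did not overlap. Each of these 8 had a two-sided exact permutation p of 0.10, the smallest the design allows, and 0.125 after adjustment over the 10 pairs, so no pair could pass 0.05. The change of ANKRD1 exceeded that of CCN2 by 0.83 log2: the ANKRD1 value minus the CCN2 value was 0.41 ± 0.072 in control and 1.24 ± 0.15 in lentivirus libraries (SD, n = 3). The change of CCN1 exceeded that of CCN2 by 0.40 log2, with differences of 0.86 ± 0.065 and 1.26 ± 0.22. That of ANKRD1 exceeded that of CCN1 by 0.42 log2 and that of YAP1 by 0.50 log2. The change of CCN1 and that of YAP1 differed by 0.07 log2, with overlapping groups (exact permutation p = 0.50, adjusted 0.556), and those of CCN2 and AXL by -0.10 (exact permutation p = 0.60, adjusted 0.60).

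FPKM is scaled to feature length, so levels can also be set against each other within a library. In all 3 control libraries the order was YAP1, CCN1, ANKRD1, CCN2 and AXL. The same order held in lentivirus replicates 2 and 3, while in lentivirus replicate 1 ANKRD1 stood above CCN1. The ratio of the ANKRD1 level to the CCN1 level was 0.670, 0.713 and 0.743 in the control libraries and 1.04, 0.965 and 0.934 in the lentivirus libraries, so the levels of these neighbours in the order did not overlap in control libraries and did overlap in lentivirus libraries. The ANKRD1 level was 25.6% to 29.9% of the YAP1 level in control libraries and 38.4% to 43.8% in lentivirus libraries. For CCN1 the shares overlapped, at 38.2% to 40.9% and 39.7% to 46.9%. For CCN2 they were 19.6% to 21.7% and 14.9% to 18.3%, and for AXL 3.17% to 3.54% and 1.98% to 2.55%. Against all 51520 features, YAP1 had a higher mean level than 85.0%, CCN1 than 73.7%, ANKRD1 than 71.6%, CCN2 than 62.9% and AXL than 44.0%. Against the 14128 features that overlap no other, these shares were 87.8%, 73.5%, 70.7%, 57.9% and 28.2% in the same order. In bulk RNA, fewer expressing cells and less RNA per cell cannot be told apart.

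On some chromosomes most features lay on one side of 0, so each gene was also set beside its surroundings, a comparison chosen after the data were seen. The 20 nearest tested features that overlap no other were taken on the same chromosome. Around ANKRD1 these features, over 4.81 Mb, had log2 changes from -0.60 to 0.32 with a median of -0.03, and none reached the change of ANKRD1. In each library, the median deviation of the neighbours from their own means over the 6 libraries was then subtracted. After this ANKRD1 differed by 0.80 log2 and the groups did not overlap. Around CCN1 the neighbours were themselves higher, with a median of 0.12, and the 680 such features of chromosome 20 had a median of 0.10 with 68.1% above 0. No neighbour reached the change of CCN1, and after subtraction it differed by 0.27 log2, again without overlap.

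Around YAP1 the neighbours spanned 7.51 Mb, and most of them had centres 3867 to 6025 kb after that of YAP1. The comparison for YAP1 is therefore mainly with a distant stretch on 1 side. These neighbours had a median of -0.08, and 1 of the 20 had a higher change, 1.01 log2. YAP1 differed by 0.35 log2 after subtraction, without overlap. For CCN2 the subtraction left 0.01 log2. For AXL it left -0.05 log2 with overlapping groups (exact permutation p = 0.60), beside a median of -0.06 over its own neighbours and of -0.04 over the 489 such features of chromosome 6. The exact permutation p was 0.10 for ANKRD1, CCN1 and YAP1.

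**Figure D3:**
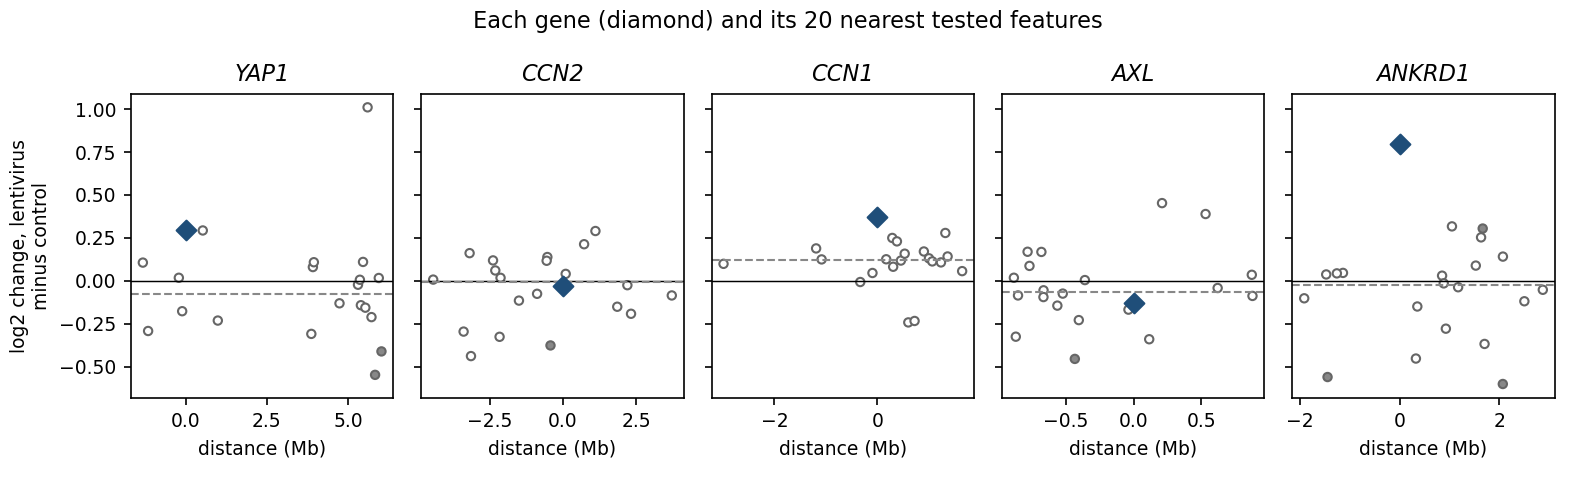
Log2 change, lentivirus minus control, of each gene (diamond) and of the 20 nearest tested features that overlap no other (circles; filled where called), by distance between centres in Mb. The dashed line is the median of the 20. ANKRD1 and CCN1 stand above all of their neighbours, YAP1 above 19 of 20, and CCN2 and AXL lie among theirs.

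Of the tested features directly beside ANKRD1, CCN1 and YAP1, none was called. The nearest feature to ANKRD1, 12.0 kb before it on chromosome 9 (84208210 to 84236945), measured 52.6 ± 2.80 FPKM in control and 57.7 ± 3.01 in lentivirus libraries (SD, n = 3), a log2 change of 0.13 (limma adjusted p = 0.262). The feature 297 kb after ANKRD1 measured 18.6 ± 1.45 and 13.4 ± 2.5 FPKM, lower in the lentivirus libraries without overlap (log2 change -0.45, limma adjusted p = 0.128). The features nearest to CCN1 lay 65.2 kb before and 105 kb after it, with log2 changes of 0.05 and 0.13 (limma adjusted p = 0.738 and 0.527). The nearest feature to YAP1, 26.5 kb before it, had a log2 change of -0.18 (limma adjusted p = 0.736). AXL lies 4.57 kb before a feature that measured 140 ± 5.70 FPKM in control and 133 ± 5.30 in lentivirus libraries (log2 change -0.07, limma adjusted p = 0.463). CCN2 has a called feature 366 kb before it, at 13.2 ± 0.476 and 9.93 ± 0.321 FPKM (log2 change -0.38, limma adjusted p = 0.0258), and an uncalled one 55.0 kb after it (log2 change 0.04, limma adjusted p = 0.681).

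The features most like YAP1 over the 6 libraries were sought among the 6495 tested features that overlap no other and average 5 FPKM or more. A feature on chromosome 10 (61682399 to 61684165) came first, with Pearson's r of 0.996 on log2(FPKM + 1), and measured 19.0 ± 1.58 FPKM in control and 25.0 ± 0.593 in lentivirus libraries (SD, n = 3). A feature on chromosome 19 (2334760 to 2335210) followed, also with r of 0.996, at 5.27 ± 0.684 and 7.54 ± 0.173 FPKM. The files pair neither with a symbol. With 6 libraries in 2 separate groups a high r largely restates the group difference, and 465 of the 6495 features had r above 0.9 with YAP1.

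Other genes of the pathway, among them WWTR1, which encodes TAZ, the TEAD genes, the LATS and MST kinases and further YAP targets, could not be looked up by symbol, since 0 of the 51520 identifiers matched the RefSeq gene table; they were not analysed here. For the same reason the identity of the cells was not checked against fibroblast or epithelial markers.

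**Figure D4:**
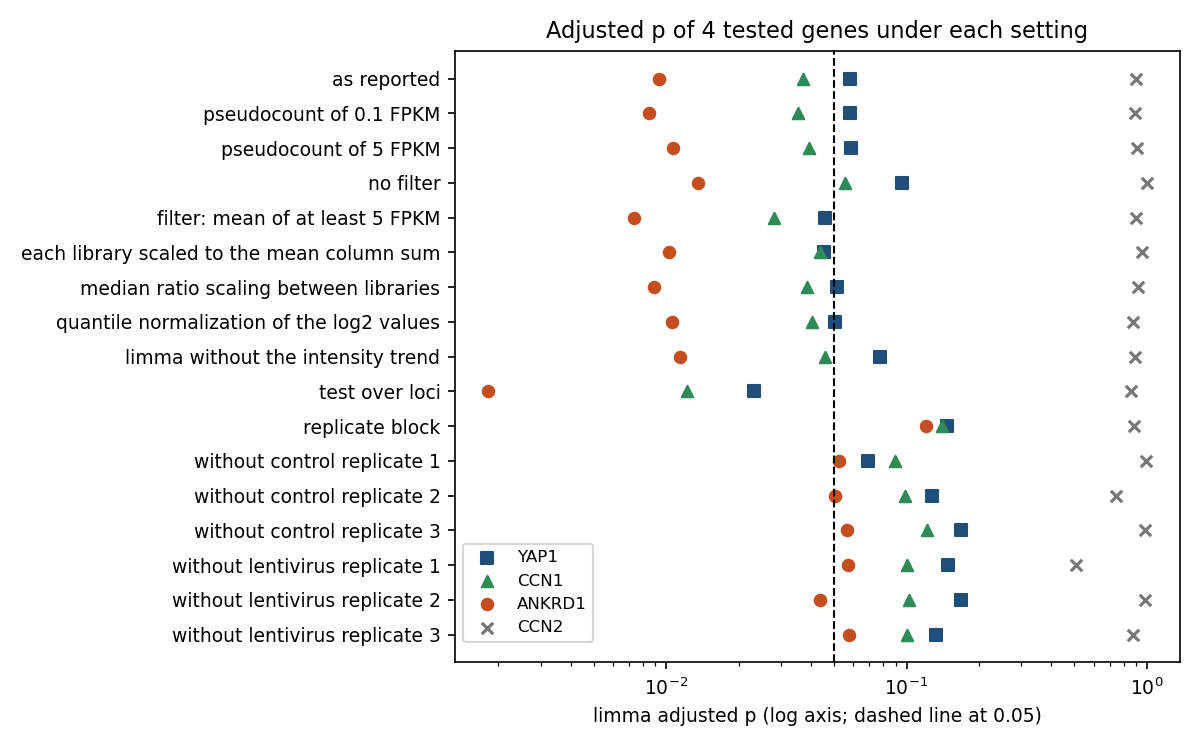
Limma adjusted p of the 4 tested genes (log axis) as reported and under 16 other settings; the dashed line marks 0.05. ANKRD1 lies below the line in 10 of the 16, CCN1 in 8, YAP1 in 3 and CCN2 in none.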

How the data were processed

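Poly-A RNA of 6 COS-1 libraries was sequenced. The authors deposited FPKM values, 1 column per library; the submitters' processing notes name Cufflinks 2.1.1, Cuffdiff, Bowtie2 2.1.0.0, CASAVA and TopHat2 2.0.10. The role of each tool, strand use and genome build: not given in the sources used here. All positions are those of the deposited table. Column sums ran from 2094230 to 2206925 FPKM; read depth is unknown, so no counting error is given, and errors are the spread between the libraries.

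Features whose mean over the 6 libraries reached 1 FPKM were tested on log2(value + 1) with limma 3.58.1 (eBayes with an intensity trend, group as the only term) in R 4.3.3; this scale understates the change of low genes. Exact permutation tests were two-sided (SciPy 1.17.1). The limma script was tested on simulated data. The members, lists and settings were chosen with earlier results of these data known. Every member was to be named with all its values; other genes only where a table pairs a symbol with the identifier. Alternatives covered the pseudocount, filter, scaling, trend, loci, a replicate block, leaving out each library and, added after the data were seen, subtraction of neighbours.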

Additional observations from a re-analysis of the deposited data

How the results depend on the processing

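Of the 2 called genes, none was called with the replicate number as a block, when 0 features were called in all (limma adjusted p = 0.121 for ANKRD1, 0.140 for CCN1 and 0.148 for YAP1; log2 changes 0.80, 0.37 and 0.30 as before); 6084 features then had an unadjusted limma p under 0.05, against 6890. Same-numbered libraries deviated together with r of 0.131, -0.0284 and 0.0028, and differently numbered ones with r from -0.135 to 0.128. With 3 libraries per group these values cannot decide whether the numbers pair the libraries. Without 1 library, 0 to 1 of the genes and 48 to 118 features were called, against 2 and 1842. The log2 changes then ran from 0.771 to 0.836 for ANKRD1, 0.325 to 0.403 for CCN1, 0.261 to 0.355 for YAP1 and -0.120 to 0.037 for CCN2, whose reversal without lentivirus replicate 3 lay within its spread. With no filter 1 gene and 1197 features were called (CCN1, log2 change 0.372, lost its call); the test then covered more features. Over loci 3134 of 16072 were called (19.5%, against 6.48% of features), and YAP1 joined the calls (log2 change 0.298), as it did with a minimum of 5 FPKM (0.298) and with scaling to a common column sum (0.319). AXL moved to -0.241 and -0.041 at pseudocounts of 0.1 and 5 FPKM, by construction. Subtracting the neighbours moved CCN1 to 0.270 and AXL to -0.047, and it also reversed the sign of CCN2, from -0.030 to 0.0059. The causes of the other changes were not tested. ANKRD1, CCN1 and YAP1 kept their direction in all 17 alternatives each.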
